A study of Homo sapiens with 36 samples.

Results

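The transcripts of 10 genes that hold or release the brake on the G1 phase of the cell cycle were followed in the A2780 ovarian cancer line and its platinum-resistant derivatives. The genes were chosen by name from the 57820 gene identifiers of the count table. They are the Cip/Kip inhibitors CDKN1A, CDKN1B and CDKN1C, the INK4 inhibitors CDKN2A, CDKN2B and CDKN2C, the D-type cyclins CCND1, CCND2 and CCND3, and the E-type cyclin CCNE1. All 10 had counts in each of the 36 libraries.

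In the human genome (GRCh37, GENCODE annotation) they are protein-coding genes at chr6:36644237-36655114 (CDKN1A, plus strand), chr12:12838432-12875303 (CDKN1B, plus), chr11:2904443-2907005 (CDKN1C, minus), chr9:21967751-21995300 (CDKN2A, minus), chr9:22002902-22009304 (CDKN2B, minus), chr1:51426417-51440306 (CDKN2C, plus), chr11:69455924-69469242 (CCND1, plus), chr12:4378937-4414519 (CCND2, plus), chr6:41902672-42018095 (CCND3, minus) and chr19:30302898-30315219 (CCNE1, plus). Reads were counted over the exons of each gene.

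The cells came from 3 lines. The line called wt is the A2780 parent, the line called cis is its isogenic analogue made resistant by long cisplatin exposure, and the line called cis SSP grew out of cis cells kept without serine and glycine. Each line was grown with serine and glycine or without them (-SG), and with or without carboplatin (carbo), which gave 12 conditions of 3 libraries each. All are human cell lines cultured in RPMI, and the labels do not say whether the cells that received serine and glycine grew in the commercial medium or in the homemade one with dialyzed serum. The labels give the carboplatin dose as 6 M, a unit that is uncertain because other assays of the study used micromolar doses. The study's legends call the 3 libraries technical replicates, so the spread and the p-values below do not cover independent cultures, and wt, cis and cis SSP are each 1 line.

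The libraries held between 13074937 and 20441582 counts assigned to genes. Levels are given as CPM, the counts of a gene relative to the library's total, scaled between libraries by edgeR's TMM method. Libraries 25 (cis SSP) and 32 (cis SSP -SG) stood apart from the other libraries of their conditions. The mean chi-square of the counts of 2 libraries over genes was 93.3 to 111 in the 4 pairs that held library 25 or 32, and 1.18 to 22.9 in the other pairs. Library 25 also had 182.9 CPM of MKI67, a marker of dividing cells, beside 599.5 and 526.5 CPM in the other cis SSP libraries, and library 32 had 155.0 CPM beside 611.1 and 550.0 CPM. Markers of dividing cells went both ways, however. TOP2A, BUB1 and CENPF were likewise lowest in library 25 and in library 32 within their conditions, whereas CDK1, CCNB1, PLK1 and AURKA were highest. CDK1 had 329.9 CPM in library 25 beside 231.0 and 232.0 CPM, and 331.9 CPM in library 32 beside 225.7 and 225.6 CPM. The main tests on cis SSP cells that are reported below are therefore given with and without these libraries. Levels per kilobase, figures and patterns over the conditions use all libraries, and not every member is reported in every comparison. Libraries 23 and 24 (cis -SG carbo) had 17.9% and 14.9% of their reads on no annotated feature. The defining markers of ovarian epithelium were largely absent: PAX8, KRT7, CDH1 and MUC16 stayed under 1 CPM in all libraries, EPCAM and WT1 under 3 CPM, and KRT8 reached 6.55 CPM and KRT18 42.2 CPM at most. VIM, a mesenchymal intermediate filament, had 1522 to 4743 CPM, and PTPRC and ALB, markers of leukocytes and hepatocytes, reached 0.0652 and 0.124 CPM at most. COL1A1, a fibroblast collagen, moved with the groups, with 161.1 to 164.1 CPM in wt, 854.8 to 867.1 CPM in wt carbo and at most 4.60 CPM in cis cells. Its part in the results below was not tested.

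As background, cells leave G1 when cyclin-dependent kinases phosphorylate the retinoblastoma protein and free the E2F factors. D-type cyclins bind and activate CDK4 and CDK6, and cyclin E1 activates CDK2. INK4 proteins bind CDK4 and CDK6 and keep D-type cyclins away, whereas the Cip/Kip proteins bind cyclin-CDK complexes and chiefly block CDK2. CDKN1A encodes p21, the best known target of p53 after DNA damage, and platinum drugs damage DNA by crosslinking it. CDKN2A encodes 2 proteins from separate first exons, p16INK4a and p14ARF, the latter of which restrains MDM2 and so stabilizes p53.

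The stretches of promoter printed here belong to 3 of the genes with the largest changes, and CDKN2A has a pair of start sites that the counts cannot separate. They are the 250 bases before each transcription start in the RefSeq table (build GRCh38.p14), which held 12 start sites of 7 of the 10 genes. CDKN1A at chr6:36678464-36678713 (plus strand), CDKN2A start 1 at chr9:21974858-21975107 (minus strand, the start of p16INK4a), CDKN2A start 2 at chr9:21995325-21995574 (minus strand, the start of p14ARF) and CDKN2C start 2 at chr1:50968456-50968705 (plus strand) read as follows, 5′ to 3′, with matches to a searched motif in capitals.
CDKN1A: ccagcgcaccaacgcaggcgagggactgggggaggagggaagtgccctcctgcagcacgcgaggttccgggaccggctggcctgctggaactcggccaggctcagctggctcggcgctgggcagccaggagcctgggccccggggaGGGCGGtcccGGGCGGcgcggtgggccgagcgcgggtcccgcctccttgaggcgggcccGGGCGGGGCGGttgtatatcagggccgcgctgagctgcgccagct
CDKN2A start 1: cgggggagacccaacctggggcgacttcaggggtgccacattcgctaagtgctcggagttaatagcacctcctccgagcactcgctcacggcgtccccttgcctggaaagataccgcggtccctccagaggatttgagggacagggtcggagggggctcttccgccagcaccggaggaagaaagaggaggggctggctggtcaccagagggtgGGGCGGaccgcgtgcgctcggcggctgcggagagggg
CDKN2A start 2: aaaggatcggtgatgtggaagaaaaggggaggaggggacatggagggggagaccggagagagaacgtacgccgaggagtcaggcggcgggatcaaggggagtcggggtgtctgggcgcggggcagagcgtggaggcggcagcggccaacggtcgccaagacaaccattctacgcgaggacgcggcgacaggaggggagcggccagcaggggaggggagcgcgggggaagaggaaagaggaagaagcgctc
CDKN2C start 2: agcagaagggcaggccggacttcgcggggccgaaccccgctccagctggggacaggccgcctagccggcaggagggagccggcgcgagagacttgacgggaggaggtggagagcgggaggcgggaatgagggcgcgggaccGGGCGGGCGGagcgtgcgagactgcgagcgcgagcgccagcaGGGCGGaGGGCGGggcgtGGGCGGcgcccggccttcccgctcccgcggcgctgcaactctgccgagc

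The letters TATAAA were searched on both strands as a TATA word. The GC box was searched as GGGCGG, a site to which Sp1 can bind. The CCAAT word was searched by its name, and the E2F words were TTTCCCGC, TTTGGCGC, TTTCGCGC and TTTGCCGC. Overlapping matches were counted separately. The GC box was the only motif found in these stretches, with 4 matches in CDKN1A, 1 in CDKN2A start 1, none in CDKN2A start 2 and 5 in CDKN2C start 2. CCNE1 (chr19:29811741-29811990, plus strand) held 7. CDKN2C also has starts 1 and 3, which are not printed. Start 1 held none of the searched motifs, and start 3 held 1 GC box and 1 CCAAT word. Of the 35116 promoters of the table, 42.6% held a GC box, 10.7% the TATA word, 32% the CCAAT word and 2.79% an E2F word. None of the 12 promoters held the TATA word or an E2F word, which says only that these letters are not in these windows.

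An element of the p53 type, a pair of abutting half-sites, was looked for in the 3000 bases upstream of each gene's main start in GRCh37, since CDKN1A gave the largest response to carboplatin. With at most 1 mismatch to the consensus outside the core bases, 57 of 18536 windows (0.308%) held an element and none of them was that of a member. With at most 2 mismatches, a limit chosen after the stricter search, 299 windows (1.61%) held one, and 1 of the 10 members did. It lay 2246 bases before the main CDKN1A start, at the first annotated base of the gene, at chr6:36644226-36644245 (GRCh37, plus strand), and the core bases of its half-sites are in capitals.
CDKN1A element: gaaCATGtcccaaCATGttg

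The 10 genes differed widely in level. Per kilobase of transcript, which is the scale for comparing genes, wt cells had 303.7 ± 3.80 CPM per kb of CCND2 (SD, n = 3, as for all levels below), 66.3 ± 1.31 of CDKN1A, 56.9 ± 1.11 of CCND1, 32.3 ± 1.02 of CCNE1, 26.8 ± 0.871 of CDKN2C, 25.8 ± 0.912 of CDKN1B and 22.03 ± 1.47 of CCND3. CDKN2A (6.15 ± 0.623), CDKN1C (1.68 ± 0.199) and CDKN2B (0.103 ± 0.0408) were far lower. The order changed in the derived lines. CDKN2C was level with CDKN1B in wt cells and lay at 1.74 ± 0.631 CPM per kb in cis SSP cells, below CDKN2A at 26.2 ± 12.5. Library 25 had the highest CDKN2A level of these, 39.8 CPM beside 19.1 and 18.03 CPM.

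**Figure D1:**
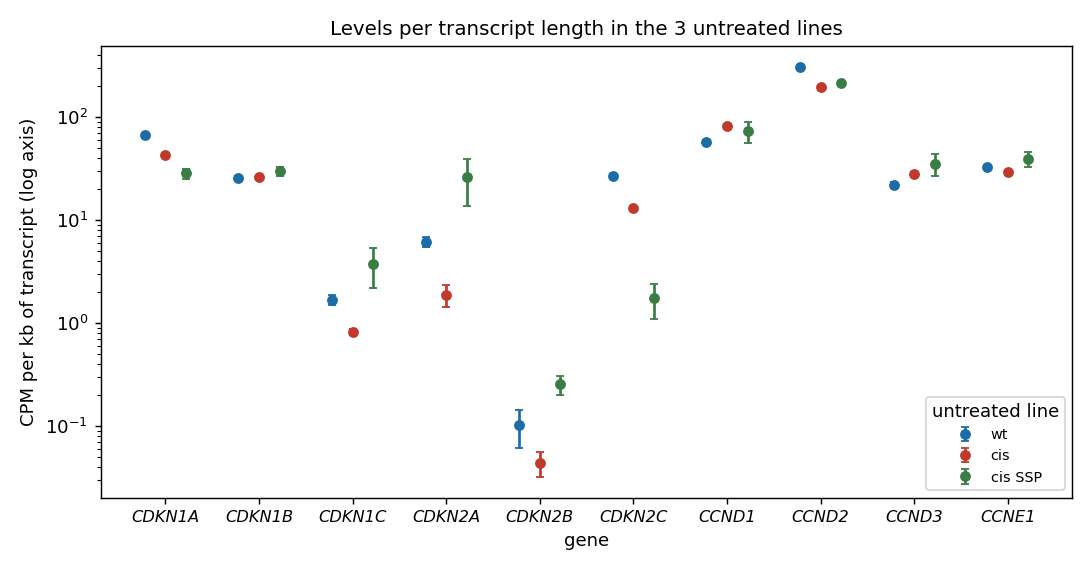
Level of each of the 10 transcripts per kilobase of transcript (log axis) in untreated wt, cis and cis SSP cells; points are means and bars the SD of 3 libraries. CCND2 was the most abundant in each line, and CDKN2A and CDKN2C changed places between wt and cis SSP cells.

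A gene was called in a comparison when its Benjamini-Hochberg adjusted p from edgeR, over all genes tested, was under 0.05. The members' counts read as follows beside the share of all genes called. Between cis and wt cells 8 of the 10 members were called beside 78.5% of genes. Carboplatin called 9 members in wt cells (77.8% of genes), 4 in cis cells (20.1%) and 1 in cis SSP cells (2.72%). In cells without serine and glycine, carboplatin called 8 members in wt (68.9%), 4 in cis (22.4%) and 1 in cis SSP cells (1.47%). Serine and glycine deprivation called 5 members in wt cells (49.1%) and 8 in cis cells (75%). It called none in cis SSP cells, where 0.0218% of genes were called, no member had an unadjusted p under 0.05 in edgeR and DESeq2 called 0 members too. Between cis SSP and cis cells 6 members were called (29.1%). The members' shares rose and dropped with the background from one comparison to the next, and nothing about the members is read from the counts alone. In cis SSP cells the counts depended on libraries 25 and 32. Without both, 9 members were called against cis cells (65.4% of genes), 6 under carboplatin (41.2%), 7 under deprivation (35.9%) and 7 under carboplatin in deprived cells (41.1%). Differences between responses were called for 6 members (carboplatin, cis minus wt, 57.6% of genes), 7 members (deprivation, cis minus wt, 54%), 3 members (deprivation, cis SSP minus cis, 17.1%, or 9 and 55.4% without libraries 25 and 32), and 2 members for the effect of the medium on the carboplatin response, both in wt (27.7%) and in cis cells (12.1%).

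**Figure D2:**
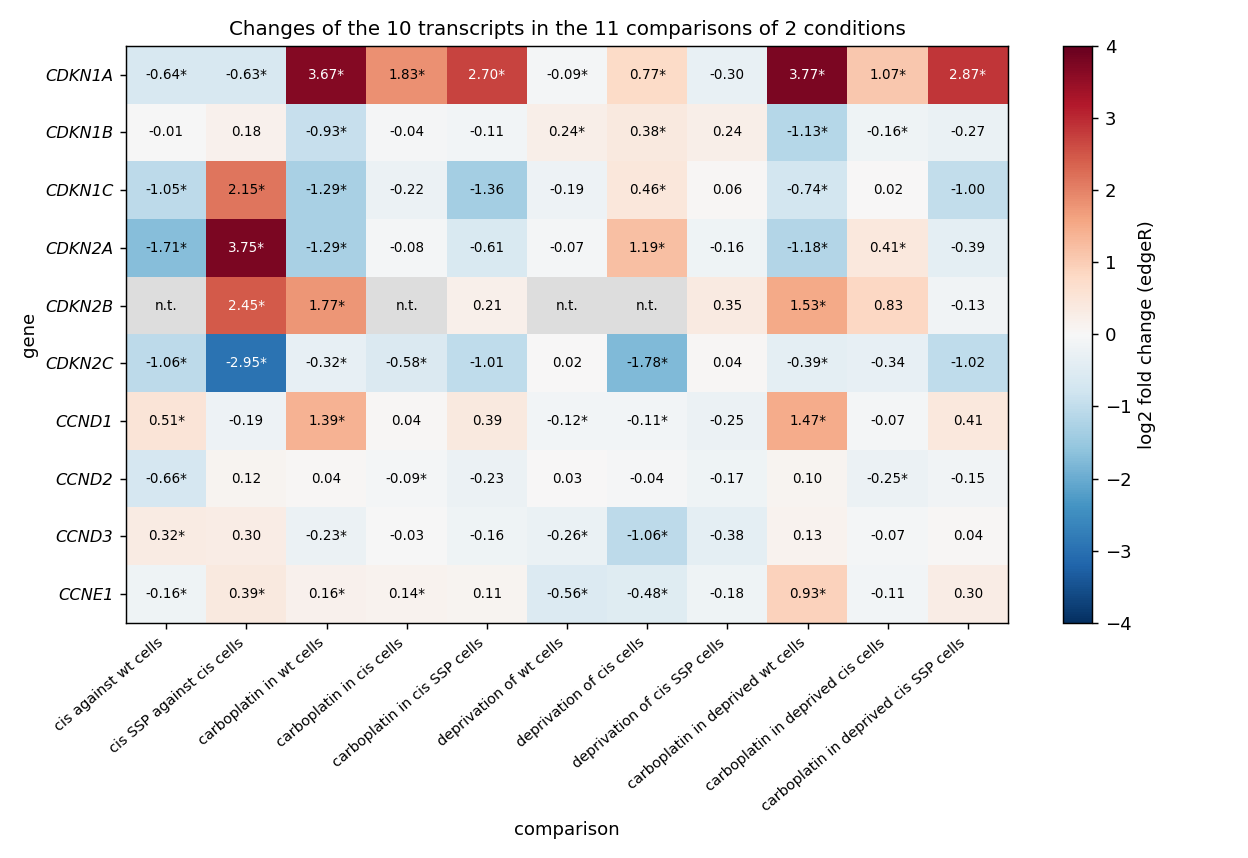
Log2 fold change (edgeR) of the 10 transcripts in the 11 comparisons of 2 conditions, first named minus second or treated minus untreated; an asterisk marks an adjusted p under 0.05 and n.t. a gene that did not pass the filter on low counts. CDKN1A had the largest carboplatin value in each line, up to 3.77 in deprived wt cells, and CDKN2A (3.75) and CDKN2C (-2.95) stood at opposite ends between cis SSP and cis cells.

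CDKN1A rose with carboplatin in all 3 lines and in both media, and its largest values were those of wt cells. In complete medium the wt libraries had 140.2, 143.1 and 137.6 CPM and the wt carbo libraries 1770, 1799 and 1763 CPM. The ranges lay far apart, and the rise was 12.7-fold (log2 fold change 3.67 ± 0.021, standard error; adjusted p = 0, the value edgeR gives when it is too small to hold). In cis cells the level went from 90.1, 91.7 and 91.5 CPM to 318.9, 324.0 and 321.2 CPM, a 3.55-fold rise (1.83 ± 0.0297, adjusted p = 1.56e-27). All treated cis libraries lay far below all treated wt libraries. The difference between the responses of cis and wt cells was itself called, at -1.83 ± 0.0346 on the log2 scale (adjusted p = 3.3e-46).

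In cis SSP cells CDKN1A started lower than in cis cells and ended higher. Its level was 67.3, 57.1 and 55.0 CPM before and 380.4, 384.4 and 368.9 CPM after carboplatin, a 6.48-fold rise (2.70 ± 0.112, adjusted p = 0.00107). Without libraries 25 and 32 the rise was 6.85-fold (2.78 ± 0.0336, adjusted p = 9.93e-29). The carboplatin responses of cis SSP and cis cells were not tested against each other. Untreated, cis cells had 0.641 times the wt level (-0.64 ± 0.0314, adjusted p = 9.86e-23) and cis SSP cells 0.646 times the cis level (-0.63 ± 0.0994, adjusted p = 0.00516, or -0.69 ± 0.045, adjusted p = 1.87e-15, without libraries 25 and 32).

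Without serine and glycine the carboplatin response of CDKN1A was smaller in cis cells, whereas in wt cells a difference between the media was not called. The wt -SG libraries had 130.4, 132.0 and 132.8 CPM and the wt -SG carbo libraries 1743, 1921 and 1729 CPM, a 13.7-fold rise (3.77 ± 0.0594, adjusted p = 3.29e-10), and the difference from complete medium was 0.10 ± 0.0537 (adjusted p = 0.193). In cis cells the level went from 152.5, 146.6 and 147.5 CPM to 332.3, 291.4 and 309.7 CPM, only 2.10-fold (1.07 ± 0.0439, adjusted p = 9.09e-08), and the difference from complete medium was called (-0.75 ± 0.0519, adjusted p = 1.93e-10). The treated cis libraries overlapped between the media, and the untreated ones did not. In deprived cis SSP cells CDKN1A went from 44.9, 57.7 and 42.8 CPM to 347.8, 343.2 and 357.0 CPM (7.29-fold, 2.87 ± 0.143, adjusted p = 0.00299), a call that was lost when any 1 of the 3 treated libraries was left out (adjusted p from 0.0595 to 0.0813), although the log2 fold change moved only from 2.86 to 2.88. Without libraries 25 and 32 it was 8.09-fold (adjusted p = 7.6e-22).

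Deprivation alone raised CDKN1A 1.70-fold in cis cells (0.77 ± 0.0338, adjusted p = 7.84e-25), where the 3 deprived libraries lay above all 3 others. In wt cells it fell slightly, by 0.09 ± 0.0299 on the log2 scale (adjusted p = 0.0176, a call kept in 3 of 6 fits with a library removed), and the responses of cis and wt cells differed by 0.87 ± 0.0429 (adjusted p = 1.55e-19). In cis SSP cells the change was -0.30 ± 0.149 (adjusted p = 0.897), with overlapping libraries, and -0.34 ± 0.0545 (adjusted p = 1.54e-05) without libraries 25 and 32. The difference between cis SSP and cis cells was called with all libraries (-1.05 ± 0.166, adjusted p = 0.00195). Over the 12 conditions the mean level of CDKN1A spanned 37.1-fold, from 48.5 CPM in cis SSP -SG to 1798 CPM in wt -SG carbo. In that order wt -SG carbo and wt carbo overlapped, as did cis carbo and cis -SG carbo, and cis SSP and cis SSP -SG, and all other neighbours lay apart.

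**Figure D3:**
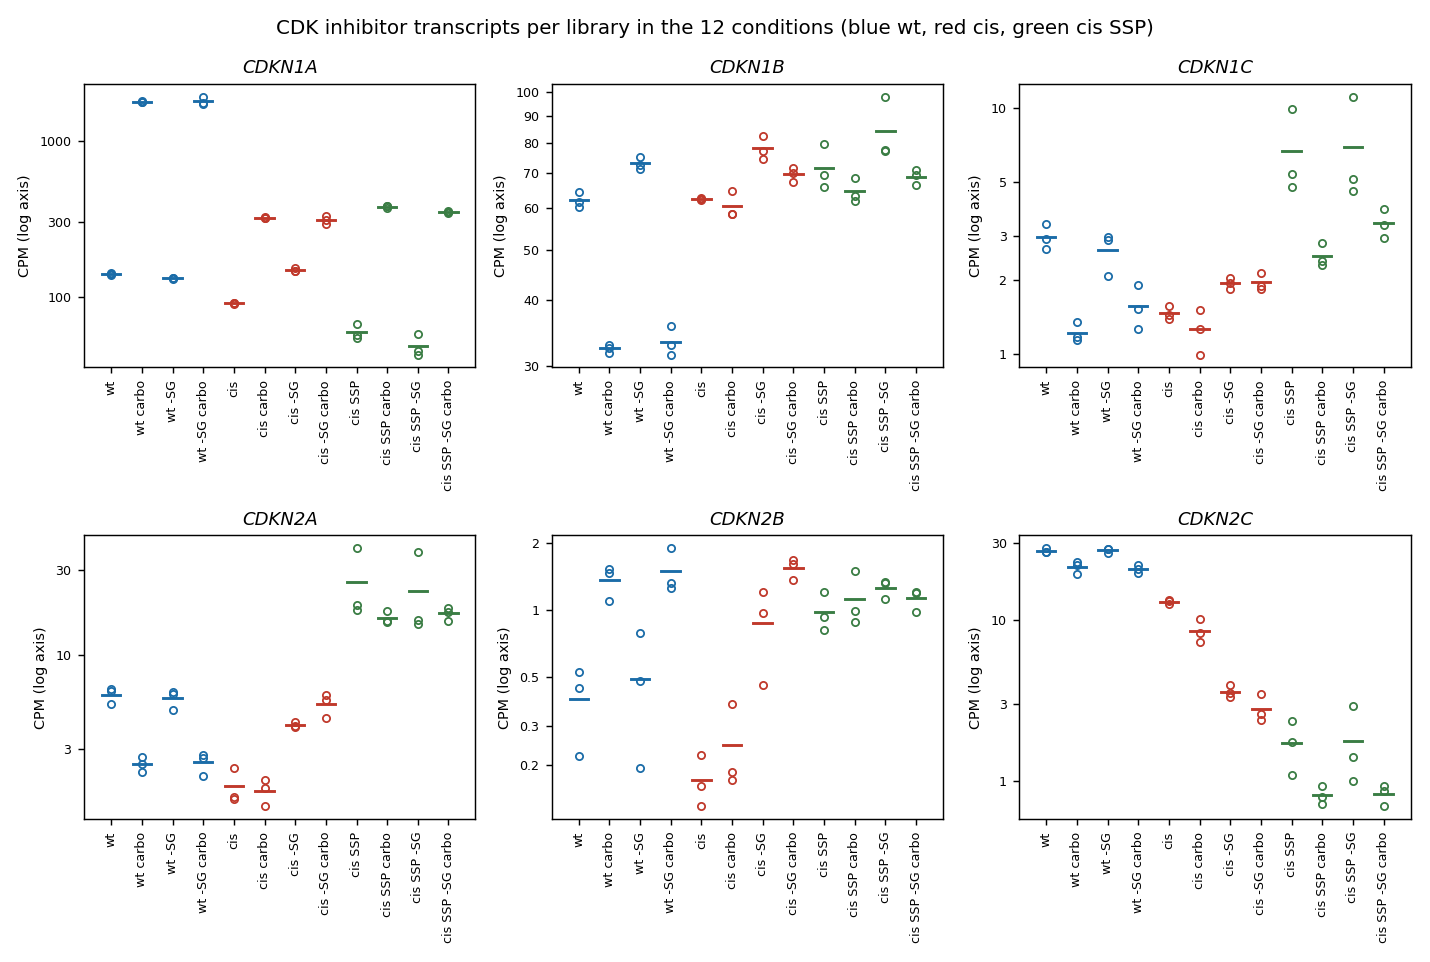
CPM of the 6 CDK inhibitor transcripts (log axis) in each library (circles) of the 12 conditions, with the mean as a line. The 6 carboplatin-treated wt libraries lay between 1729 and 1921 CPM for CDKN1A, above all other libraries, and CDKN2C stepped down from wt through cis to cis SSP cells.

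CDKN1B, which encodes p27, a brake on CDK2 in resting cells, moved the other way in wt cells. Its level fell from 61.7, 64.6 and 60.3 CPM to 32.5, 32.9 and 31.8 CPM with carboplatin, to 0.524 times (-0.93 ± 0.0452, adjusted p = 1.21e-75), and from 71.5, 75.4 and 72.7 CPM to 31.5, 35.7 and 32.9 CPM in deprived wt cells (-1.13 ± 0.0619, adjusted p = 2.77e-07). These 6 treated libraries were the lowest of the 36, at 31.5 to 35.7 CPM, and the other 30 had at least 58.4 CPM. In cis cells the carboplatin change was -0.04 ± 0.0453 (adjusted p = 0.599), and the responses of the lines differed by 0.90 ± 0.0636 (adjusted p = 5.91e-19). In deprived cis cells CDKN1B fell by 0.16 ± 0.0454 (adjusted p = 0.0256, kept in 2 of 6 such fits, in which a library was removed). Deprivation raised it in wt cells (0.24 ± 0.0395, adjusted p = 4.39e-05) and in cis cells (0.38 ± 0.0419, adjusted p = 3.46e-11), and the untreated wt and cis levels of 62.2 ± 2.20 and 62.5 ± 0.278 CPM were not told apart (adjusted p = 0.818). GPR19, which overlaps CDKN1B on the other strand, had counts equal to 2.88% of those of CDKN1B, and whether the counting used strand is not stated.

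CDKN1C, the imprinted p57 gene, was scarce, at 16 to 151 counts per library. The wt libraries had 2.66, 3.36 and 2.93 CPM and the wt carbo libraries 1.13, 1.34 and 1.17 CPM, a fall by 1.29 ± 0.211 on the log2 scale (adjusted p = 3.5e-09). The cis libraries had 1.43, 1.39 and 1.56 CPM (cis against wt -1.05 ± 0.197, adjusted p = 7.05e-06). In cis SSP cells the level was 9.90, 4.77 and 5.35 CPM, the first of which was library 25, and the rise over cis cells was 4.43-fold (2.15 ± 0.308, adjusted p = 0.00384) or 3.49-fold without libraries 25 and 32 (adjusted p = 3.77e-10). Carboplatin left cis SSP cells with 2.39, 2.30 and 2.81 CPM, below all untreated cis SSP libraries. The difference was not called with all libraries (-1.36 ± 0.303, adjusted p = 0.0829) and was called without libraries 25 and 32 (adjusted p = 2.02e-05).

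CDKN2A had its lowest levels in cis cells and its highest in cis SSP cells. The wt libraries had 5.31, 6.44 and 6.28 CPM and the cis libraries 1.56, 2.35 and 1.61 CPM, a 3.26-fold drop (-1.71 ± 0.164, adjusted p = 8.44e-13). The cis SSP libraries had 39.8, 19.1 and 18.03 CPM, all above every wt and cis library. Library 25 held the value of 39.8, and library 32 likewise had 37.9 CPM beside 15.03 and 15.9 CPM in the other deprived cis SSP libraries. The rise over cis cells was 13.4-fold (3.75 ± 0.379, adjusted p = 0.0011), and 10.0-fold without libraries 25 and 32 (3.32 ± 0.136, adjusted p = 3.37e-21). Reads were counted per gene, so the promoters printed above cannot be told apart, nor can p16INK4a from p14ARF.

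Carboplatin lowered CDKN2A in wt cells, to 2.22, 2.68 and 2.46 CPM (-1.29 ± 0.149, adjusted p = 5.29e-17), and in deprived wt cells (-1.18 ± 0.161, adjusted p = 0.000128). In cis cells its value was -0.08 ± 0.228 (adjusted p = 0.858), and the responses of cis and wt cells differed by 1.22 ± 0.274 (adjusted p = 0.000117). In deprived cis cells it rose by 0.41 ± 0.139, at the edge of the threshold (adjusted p = 0.0498), and the call stayed in 1 of 6 fits made with a library removed. The carboplatin values of cis SSP cells were -0.61 ± 0.309 in complete medium and -0.39 ± 0.373 without serine and glycine, neither called. Without libraries 25 and 32 they were -0.17 and 0.18, again neither called.

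Deprivation raised CDKN2A 2.28-fold in cis cells. The level went from 1.56, 2.35 and 1.61 CPM to 3.98, 4.02 and 4.22 CPM (1.19 ± 0.174, adjusted p = 5.29e-08). In wt cells the change was -0.07 ± 0.124 (adjusted p = 0.652) with overlapping libraries, and the difference between the lines was called (1.28 ± 0.216, adjusted p = 4.12e-06). The cis -SG libraries still lay below all 12 cis SSP libraries, whose lowest value was 15.03 CPM.

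CDKN2B, the neighbour of CDKN2A on 9p21 and a target of TGF-beta signalling, had 2 to 30 counts per library, and its levels carry wide counting error. In wt cells 8, 4 and 10 counts stood beside 27, 18 and 26 counts after carboplatin (0.396 ± 0.157 and 1.36 ± 0.229 CPM, 3.41-fold, 1.77 ± 0.332, adjusted p = 2.5e-07), and it also rose in deprived wt cells (1.53 ± 0.384, adjusted p = 0.00564). The cis libraries had 2, 3 and 4 counts and the cis SSP libraries 11, 20 and 17 (2.45 ± 0.343, adjusted p = 0.00327, or 2.58 ± 0.46, adjusted p = 8.99e-06, without libraries 25 and 32). It did not pass the filter on low counts in 4 comparisons, namely cis against wt, carboplatin in cis cells, and deprivation in wt and in cis cells. In the last of these, 9, 23 and 19 counts without serine and glycine stood beside the 2, 3 and 4 counts with them. CDKN2B-AS1, which overlaps it on the other strand, had counts equal to 7.26% of those of CDKN2B.

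CDKN2C, which encodes p18INK4c, fell step by step from wt to cis to cis SSP cells. The wt libraries had 27.7, 26.1 and 26.3 CPM, the cis libraries 13.3, 12.5 and 13.1 CPM and the cis SSP libraries 2.35, 1.75 and 1.09 CPM. No library of one line overlapped with those of the next. The change from wt to cis was -1.06 ± 0.0688 (adjusted p = 2.12e-18) and that from cis to cis SSP -2.95 ± 0.232 (adjusted p = 0.000435), or a 9.07-fold drop without libraries 25 and 32 (-3.18 ± 0.165, adjusted p = 3.33e-18). Between cis SSP and cis cells CDKN2A and CDKN2C, both INK4 inhibitors, therefore changed in opposite directions.

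Deprivation of cis cells lowered CDKN2C 3.44-fold, to 3.93, 3.34 and 3.51 CPM (-1.78 ± 0.109, adjusted p = 1.89e-19). In wt cells the value was 0.02 ± 0.057 (adjusted p = 0.806), and the responses differed by -1.79 ± 0.118 (adjusted p = 9.42e-16). For cis SSP cells the value was 0.04 ± 0.465 (adjusted p = 1), and -0.20 ± 0.315 (adjusted p = 0.667) without libraries 25 and 32. The response of cis SSP cells differed from that of cis cells by 1.83 ± 0.467 (adjusted p = 0.0221, kept in 7 of 12 fits with a library removed). The deprived cis libraries thus lay between those of cis and cis SSP cells in complete medium for both CDKN2A and CDKN2C, in comparisons that share the untreated cis libraries. Carboplatin lowered CDKN2C in wt cells (-0.32 ± 0.061, adjusted p = 4.47e-07), deprived wt cells (-0.39 ± 0.0708, adjusted p = 0.000856) and cis cells (-0.58 ± 0.102, adjusted p = 0.000121). Treated cis SSP cells had 0.727, 0.932 and 0.803 CPM, or 14 to 17 counts, below all untreated cis SSP libraries. The difference was not called with all libraries (-1.01 ± 0.316, adjusted p = 0.184), and without libraries 25 and 32 it was at the edge of the threshold (-0.75 ± 0.305, adjusted p = 0.0499).

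CCND1, cyclin D1, rose with carboplatin in wt cells. The wt libraries had 236.2, 245.5 and 242.1 CPM and the wt carbo libraries 624.4, 634.0 and 631.9 CPM, a 2.62-fold rise (1.39 ± 0.0198, adjusted p = 0, too small to hold), and deprived wt cells went from 217.1, 226.9 and 223.3 CPM to 648.4, 554.4 and 643.6 CPM (1.47 ± 0.0724, adjusted p = 1.38e-07). In cis cells, 355.9, 348.0 and 342.6 CPM stood beside 352.7, 355.5 and 356.2 CPM, with overlapping ranges (0.04 ± 0.0262, adjusted p = 0.373). The responses differed by -1.35 ± 0.0331 (adjusted p = 9.01e-41). Libraries 25 and 32 of cis SSP cells were low, at 223.4 CPM beside 352.3 and 348.3 CPM, and at 198.8 CPM beside 283.2 and 293.0 CPM. The carboplatin value was 0.39 ± 0.197 (adjusted p = 0.382) with library 25 and 0.19 ± 0.0234 (adjusted p = 1.61e-07) without it. Untreated, cis cells had 1.43 times the wt level (0.51 ± 0.0251, adjusted p = 9.33e-23). Deprivation lowered CCND1 a little in wt (-0.12 ± 0.0275, adjusted p = 0.00149) and cis cells (-0.11 ± 0.0282, adjusted p = 0.000743). CCND1 and CDKN1A, a cyclin and an inhibitor, thus both rose in treated wt cells. LTO1, on the other strand at the CCND1 locus, had counts equal to 4.31% of those of CCND1.

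**Figure D4:**
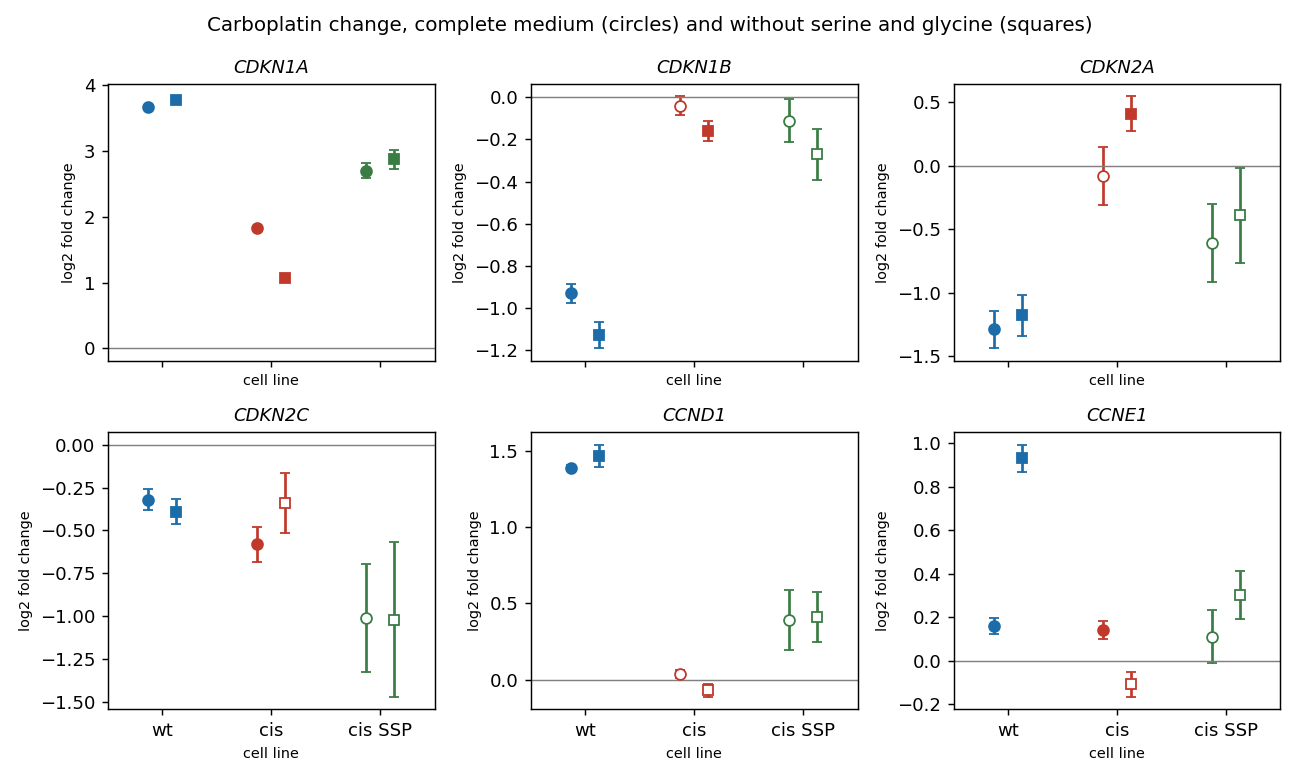
Log2 fold change under carboplatin (edgeR, bars are standard errors) of 6 of the 10 transcripts in wt, cis and cis SSP cells with serine and glycine (circles) and without them (squares); filled symbols have an adjusted p under 0.05. CDKN1A lay above 1 in all 6 comparisons, and in wt cells CDKN1B lay at -0.93 and -1.13 and CCND1 at 1.39 and 1.47.

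CCND2, cyclin D2, was the most abundant member and the least variable, with a 2.20-fold span of its condition means, from 983.0 to 2159 CPM. The 12 wt libraries had 1907 to 2322 CPM and lay above all 24 libraries of the derived lines, which reached 1446 CPM at most. Untreated cis cells had 0.633 times the wt level (-0.66 ± 0.0271, adjusted p = 1.02e-20). Carboplatin values in wt cells were 0.04 ± 0.026 (adjusted p = 0.182) and 0.10 ± 0.0596 (adjusted p = 0.147) in complete and deprived medium. In cis cells CCND2 fell by 0.09 ± 0.0301 (adjusted p = 0.0305, kept in 1 of 6 fits with a library removed), and in deprived cis cells by 0.25 ± 0.0359 (adjusted p = 0.000376), from 1229, 1136 and 1162 CPM to 1027, 949.2 and 972.7 CPM. The value in cis SSP cells was -0.23 ± 0.103 (adjusted p = 0.326) with all libraries and -0.28 ± 0.0212 (adjusted p = 4.07e-11) without libraries 25 and 32.

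CCND3, cyclin D3, fell 2.08-fold in deprived cis cells. The cis libraries had 54.6, 58.5 and 56.4 CPM and the cis -SG libraries 26, 26.01 and 26.2 CPM (-1.06 ± 0.0507, adjusted p = 2.19e-23). The fall in wt cells was smaller (-0.26 ± 0.0518, adjusted p = 0.000337), and the difference between the lines was called (-0.78 ± 0.0708, adjusted p = 5.2e-12). Deprived cis SSP cells gave -0.38 ± 0.221 (adjusted p = 0.988), and -0.38 ± 0.0557 (adjusted p = 5.17e-06) without libraries 25 and 32, whose levels of 89.6 and 68.9 CPM were the highest of their conditions. The 6 deprived cis libraries, with or without carboplatin, were the lowest of the 36, at 23.7 to 26.2 CPM. Carboplatin lowered CCND3 in wt cells (-0.23 ± 0.0471, adjusted p = 1.55e-06), and its value in cis cells was -0.03 ± 0.0465 (adjusted p = 0.666).

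**Figure D5:**
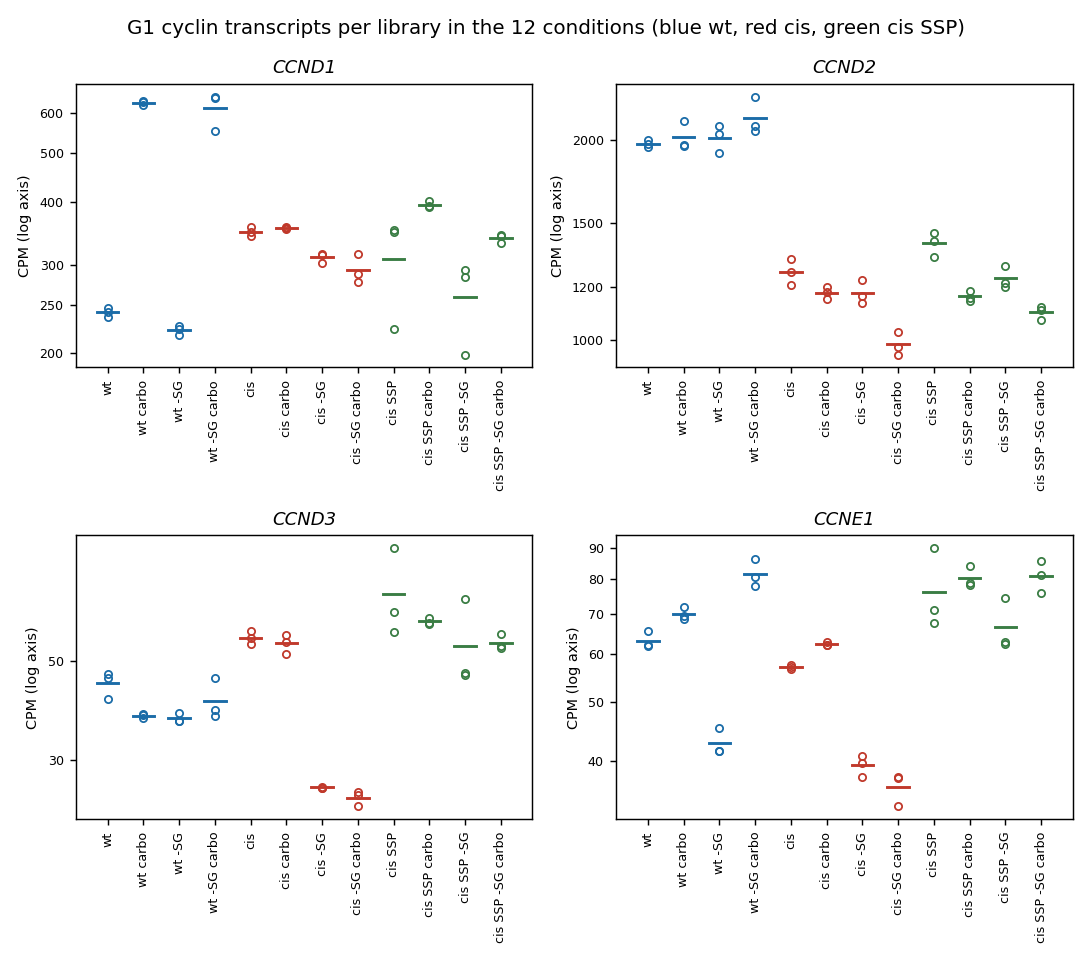
CPM of the 4 G1 cyclin transcripts (log axis) in each library (circles) of the 12 conditions, with the mean as a line. CCND1 stood at 554.4 CPM or more in the carboplatin-treated wt libraries and at 401.3 CPM or less in the others, CCND2 split wt from the derived lines, and CCND3 and CCNE1 were lowest in deprived cis cells.

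CCNE1, cyclin E1, fell with deprivation in wt and cis cells. The wt libraries went from 62.2, 65.5 and 61.9 CPM to 41.5, 45.3 and 41.5 CPM (-0.56 ± 0.0449, adjusted p = 2.42e-09) and the cis libraries from 57.6, 56.8 and 57.1 CPM to 37.6, 39.7 and 40.7 CPM (-0.48 ± 0.0471, adjusted p = 1.65e-12). The difference between these responses was 0.10 ± 0.0638 (adjusted p = 0.193). The deprivation change of CCNE1 in cis SSP cells was -0.18 ± 0.143 (adjusted p = 1), and -0.14 ± 0.049 (adjusted p = 0.0306) without libraries 25 and 32. Carboplatin raised CCNE1 little in wt cells (0.16 ± 0.0376, adjusted p = 6.53e-05) and 1.91-fold in deprived wt cells, to 80.5, 86.3 and 77.7 CPM (0.93 ± 0.0626, adjusted p = 1.01e-06). The carboplatin response therefore depended on the medium in wt cells (0.77 ± 0.0715, adjusted p = 1.37e-06). Treated cis cells in complete medium had 62.75, 62.01 and 62.09 CPM, above all untreated cis libraries. With single libraries left out that log2 fold change was 0.13 to 0.14, called in 3 of 6 fits. In deprived cis cells 37.6, 33.6 and 37.4 CPM remained after carboplatin (-0.11 ± 0.0571, adjusted p = 0.182), and the dependence on the medium had the opposite sign (-0.24 ± 0.068, adjusted p = 0.0186). These dependences in wt and cis cells were not tested against each other. In cis SSP cells CCNE1 was not called under carboplatin in either medium with all libraries. Without libraries 25 and 32 it was called higher, by 0.23 ± 0.0429 (adjusted p = 8.21e-05) in complete medium and 0.39 ± 0.0491 (adjusted p = 2.54e-06) in deprived cells. Untreated cis SSP cells, with 89.8, 67.6 and 71.0 CPM, had more CCNE1 than cis cells (0.39 ± 0.116, adjusted p = 0.0474). Of the 6 fits leaving out a library, only the 1 without library 25 kept this call (0.29 ± 0.0468, adjusted p = 1.55e-06). Library 32 is not part of this comparison.

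The rest of the G1 machinery was read from lists of genes. Of 11 other G1 kinases, cyclins and inhibitors, 8 were called under carboplatin in wt cells (beside 77.8% of all genes), 1 higher and 7 lower, with a median log2 fold change of -0.35 over the 11 tested, beside -0.00 over all genes tested. The largest falls were in CDKN3, a phosphatase of CDK2 (-2.79 ± 0.102, adjusted p = 1.36e-116), CCNA2, the S-phase cyclin A2 (-2.25 ± 0.0341, adjusted p = 0), and CDK2 itself (-1.07 ± 0.0418, adjusted p = 4.57e-105). In cis cells 4 of the 10 tested were called lower and none higher (20.1% of all genes were called), and CCNA2 fell by 0.16 ± 0.0316 (adjusted p = 0.000446). Deprivation lowered 7 of the 10 tested in cis cells and raised none, where 75% of all genes were called, with CDKN3 at -1.76 and CCNA2 at -1.58. Between cis and wt cells the largest value was that of CCNE2, the second E-type cyclin, at 20.5 CPM in cis beside 4.63 CPM in wt cells (2.12 ± 0.0937, adjusted p = 1.84e-24). CDK4, the partner of D-type cyclins, was called higher in cis SSP than in cis cells (0.57 ± 0.11, adjusted p = 0.0108). Library 25 had its highest level, 163.7 CPM beside 131.7 and 129.1 CPM, and the value without libraries 25 and 32 was 0.48 ± 0.0374 (adjusted p = 1.67e-13).

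Of 12 p53 targets other than CDKN1A, 11 were tested in wt cells and all 11 rose with carboplatin (77.8% of all genes were called), with a median of 1.54 beside -0.00 over all genes. In cis cells 10 were tested and 10 rose (beside 20.1% of all genes called), with a median of 0.65. GDF15, a secreted stress factor, rose from 45.6 to 881.7 CPM in wt (4.28 ± 0.0248, adjusted p = 0) and from 45.7 to 201.1 CPM in cis cells (2.15 ± 0.0555, adjusted p = 6.1e-11). BTG2, an antiproliferative factor, rose by 2.11 ± 0.0299 and 1.03 ± 0.0447 on the log2 scale. The carboplatin responses of 9 targets were called smaller in cis than in wt cells and 1 larger, beside 57.6% of all genes called for this difference. Under carboplatin in cis SSP cells, 4 of the 10 tested were called (2.72% of all genes), all higher, with a median of 0.84, and 10 had an unadjusted p under 0.05. Without libraries 25 and 32 all 10 were called higher (41.2% of all genes were called), with a median of 0.96. TP53INP1, a target that promotes cell death, was far lower in cis than in wt cells before treatment (-7.55 ± 0.159, adjusted p = 4.92e-37).

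Most targets of E2F fell with carboplatin in wt and cis cells in complete medium, with a smaller median fall in cis cells. Of 11 E2F targets, 10 fell and 1 rose with carboplatin in wt cells (median -1.14, beside 77.8% of all genes called), and 7 fell and 2 rose in cis cells (median -0.18, beside 20.1%). MCM2, a subunit of the replicative helicase, fell by 1.58 ± 0.0258 in wt and by 0.29 ± 0.0282 in cis cells. All 8 markers of dividing cells fell in wt cells (median -2.00), and 5 of 8 in cis cells (median -0.12). Under carboplatin in cis SSP cells without libraries 25 and 32, 5 of the 11 E2F targets were called lower and 3 higher (median -0.05, beside 41.2% of all genes). In deprived cis SSP cells without these libraries, 1 was called lower and 4 higher (median 0.10, beside 41.1%). Deprivation lowered 10 of the 11 E2F targets in wt cells (median -0.42, beside 49.1% of all genes called), and 10 with 1 higher in cis cells (median -0.53, beside 75%). The dividing-cell markers fell 7 of 8 in wt (median -0.35) and 8 of 8 in cis cells (median -1.31). Among cis SSP cells none of either list was called under deprivation, with medians of -0.05 and 0.00 and no gene at an unadjusted p under 0.05, but only 3 genes of the whole table were called there. With libraries 25 and 32 removed, 2 of the 11 E2F targets were called lower and none higher (median -0.05), and 2 of the 8 dividing-cell markers were called higher and 1 lower (median 0.02), beside 35.9% of all genes. In bulk samples a lower share of dividing cells and less RNA per cell cannot be told apart.

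Of 13 ubiquitin ligase subunits that help to remove these proteins, SKP2, which marks p27 for destruction, moved most. It fell with carboplatin by 1.41 ± 0.0355 in wt (adjusted p = 3.29e-191) and 0.24 ± 0.0402 in cis cells (adjusted p = 4.91e-05), and with deprivation by 0.32 ± 0.0315 in wt and 1.46 ± 0.0484 in cis cells. DTL, which targets p21 during replication, fell by 1.24 ± 0.0307 in treated wt cells. In the list as a whole, 5 were higher and 6 lower under carboplatin in wt cells, where 77.8% of all genes were called, with a median of -0.03.

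The genes whose patterns over the 12 condition means were most like those of the members are given as a description. Pearson's r of log2(CPM + 1) over these 12 means, which share line and treatment, was highest with STAT3 (0.984) and BTG2 (0.974) for CDKN1A, MSL2 and PARP16 (both 0.985) for CDKN1B, NOS3 (0.971) and RETREG2 (0.968) for CDKN2A, and GPC3 (0.988) and GREB1L (0.982) for CDKN2C. For the cyclins it was SLC43A2 (0.983) and SEMA7A (0.982) with CCND1, IFITM3 (0.977) and IGFBP2 (0.973) with CCND2, PPM1G (0.982) and GPAA1 (0.981) with CCND3, and SGTA and GFM1 (both 0.970) with CCNE1. These are the highest of 11616 genes compared. Among the members themselves, CDKN1A and CCND1 went together over the 12 means (0.84) and both went against CDKN1B (-0.87 and -0.89), and CDKN2C went with CCND2 (0.82). The carboplatin-treated wt conditions had the highest CDKN1A and CCND1 means and the lowest CDKN1B means. In cis cells carboplatin took CDKN1A from 91.1 to 321.4 CPM, beside 348.8 and 354.8 CPM of CCND1 and 62.5 and 60.6 CPM of CDKN1B.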

How the data were processed

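RNA was sequenced in 36 libraries, 3 for each of 12 conditions. The authors made single reads, aligned them with STAR to GRCh37.p13, and counted reads over exons with HTSeq and GENCODE annotation; the deposited values are raw counts for 57820 gene identifiers. The strand setting is not given in the sources used here. Of these identifiers, 55538 were paired with a symbol from a GENCODE annotation lifted to GRCh37. The 3 rows that name no gene were left out of library sizes and tests, and reads on no feature made up 4.21% to 17.9% of a library. The study's methods give day 5 as the general time of its experiments.

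Each comparison was fitted on its own 6 libraries (12 for a difference of responses) with edgeR 4.0.16 in R 4.3.3: TMM scaling, filterByExpr, a robust quasi-likelihood fit and Benjamini-Hochberg adjustment over all genes tested, called under 0.05. Standard errors were taken from the F statistic, and a value followed by ± in the report is a log2 fold change with its standard error unless called a level. Levels per kilobase used the length of the main transcript. The fits were tested on simulated data. Alternatives were DESeq2 1.42.0, other scalings and filters, 1 fit over all libraries, and leaving out libraries. Genes outside the 10 were named as the called genes of a list, at most 3 per comparison, with the largest change and a mean of at least 50 counts. A result that this rule would name is not reported here. The 10 members and the lists were chosen with earlier results of these data known. All pairs of replicate libraries differed by more than sampling noise, and none was counted as 1 sample. Samples were grouped by the submitters' labels, and replicates carry no number there.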

Additional observations from a re-analysis of the deposited data

Results flagged for a closer look

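The results below were picked out because a response differed between lines or media by a test of the difference itself (edgeR, on the log2 scale, adjusted over all genes tested). The carboplatin response of cis cells minus that of wt cells was called for 6 members, beside 57.6% of all genes. It was -1.83 for CDKN1A, -1.35 for CCND1, 0.90 for CDKN1B, 1.07 for CDKN1C, 1.22 for CDKN2A and 0.21 for CCND3.

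The deprivation response of cis cells minus that of wt cells was called for 7 members, beside 54% of all genes. It was 0.87 for CDKN1A, 0.16 for CDKN1B, 0.67 for CDKN1C, 1.28 for CDKN2A, 2.01 for CDKN2B, -1.79 for CDKN2C and -0.78 for CCND3. The CDKN2B value rests on 2 to 23 counts per library. With single libraries left out, the CDKN1C call was kept in 4 of 12 fits (0.49 to 0.77), that of CDKN1B in 9 and that of CDKN2B in 10.

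The deprivation response of cis SSP cells minus that of cis cells was called for 3 members, beside 17.1% of all genes, at -1.05 for CDKN1A, -1.99 for CDKN2B and 1.83 for CDKN2C. With single libraries left out, the call was kept in 5 of 12 fits for CDKN2B and in 7 for CDKN2C. Without libraries 25 and 32 these were -1.11, -2.14 and 1.59, and 9 members were called beside 55.4% of genes.

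The carboplatin response without serine and glycine minus that with them was called for 2 members in wt cells, beside 27.7% of all genes, at 0.36 for CCND3 and 0.77 for CCNE1. In cis cells it was called for 2 members, beside 12.1% of all genes, at -0.75 for CDKN1A and -0.24 for CCNE1.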

How the results depend on the processing

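No paired analysis was possible because the labels give the replicates no numbers. Among values that passed the threshold, none changed sign under the alternatives run (other scalings, other filters, DESeq2, 1 fit over the 36 libraries, and libraries left out singly or in pairs). The counts of members called moved as follows when 1 fit was made over the 36 libraries: 2 in place of 4 for carboplatin in cis cells, 5 in place of 1 in cis SSP cells, 2 in place of 4 in deprived cis cells, 7 in place of 1 in deprived cis SSP cells, 2 in place of 5 for deprivation of wt cells and 3 in place of 0 for cis SSP cells. For differences of responses they were 3 in place of 6 and 4 in place of 7 (carboplatin and deprivation, cis minus wt), 6 in place of 3 (deprivation, cis SSP minus cis), and 1 in place of 2 for the medium in wt and in cis cells. DESeq2 called 2 members in place of 1 for carboplatin in cis SSP cells, as did the fit with no filter on low counts, 2 in place of 4 in deprived cis cells and 4 in place of 7 for deprivation, cis minus wt. Without libraries 25 and 32 the counts were 6 for carboplatin in cis SSP cells, 7 in deprived cis SSP cells, 7 for deprivation of cis SSP cells and 9 for deprivation, cis SSP minus cis. Without libraries 23 and 24, a choice made after seeing the data, the medium changed the carboplatin response of 1 member in place of 2 in cis cells. That fit has 1 library of cis -SG carbo, which is assumed to vary like the other groups. The cause was not tested.

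When single libraries were left out (numbered below by replicate within a condition, in accession order) the counts ran from 2 to 4 for carboplatin in cis cells (2 without cis 2, cis carbo 1 or cis carbo 3), 1 to 6 in cis SSP cells (6 without library 25), 2 to 5 in deprived cis cells (2 without cis -SG 1, cis -SG 3 or cis -SG carbo 3), 0 to 7 in deprived cis SSP cells (7 without library 32, 0 without any treated library), 1 to 5 for deprivation, cis SSP minus cis (5 without library 25, and 1 without cis 1, cis -SG 2, cis -SG 3 or cis SSP 3), and for the medium 2 to 4 in wt (4 without wt -SG carbo 2) and 2 to 5 in cis cells (5 without cis -SG carbo 1). The counts of all genes called moved in these fits too. Under carboplatin they ran from 1755 to 2554 in cis cells and from 9 to 5835 in cis SSP cells. In deprived cells they ran from 1666 to 5224 in cis and from 0 to 5679 in cis SSP cells. They were 1829 to 3482 for deprivation, cis SSP minus cis, and 3454 to 5306 for the medium in wt cells. Nothing about the members is read from their counts in these fits. Of 1236 values from these fits, 1100 kept direction and side of the threshold, 63 were no longer called, 42 were newly called and 31 changed sign uncalled.

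Values that changed sign were all uncalled log2 fold changes. With libraries 25 and 32 removed they were CCND1 in cis SSP against cis cells (0.02), CCND3 (0.03) under carboplatin in cis SSP cells, CDKN2A (0.18) in deprived ones, and CDKN1C (-0.05) and CDKN2C (-0.20) under deprivation of cis SSP cells. Without libraries 23 and 24 they were CDKN1C (-0.02) and CCND1 (0.03) under carboplatin in deprived cis cells. By total counts they were CCND2 under carboplatin in wt cells (-0.03), CDKN1C (-0.01) and CDKN2C (-0.03) under deprivation of cis SSP cells, CCNE1 (0.04) for carboplatin, cis minus wt, and CCND3 (0.00) for the medium in cis cells. With no filter they were CDKN1B in cis against wt cells (0.01), CDKN1C (0.00) under carboplatin in deprived cis cells and CCNE1 (0.01) for carboplatin, cis minus wt, and in 1 fit over all libraries CDKN1B in cis against wt cells (0.01) and CCND1 (-0.05) for deprivation, cis minus wt.

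With single libraries left out, the ranges that crossed zero were -0.03 to 0.02 for CDKN1B in cis against wt cells and -0.32 to 0.02 for CCND1 in cis SSP against cis cells. Under carboplatin they were 0.00 to 0.06 for CCND2 in wt cells, -0.20 to 0.15 for CDKN2A and -0.07 to 0.01 for CCND3 in cis cells, -0.04 to 0.38 for CDKN2B and -0.29 to 0.03 for CCND3 in cis SSP cells, -0.05 to 0.06 for CDKN1C in deprived cis cells, and -0.62 to 0.18 for CDKN2A and -0.06 to 0.26 for CCND3 in deprived cis SSP cells. Under deprivation they were -0.15 to 0.04 for CDKN2A in wt cells, and -0.41 to 0.42 for CDKN1C, -0.69 to 0.27 for CDKN2A and -0.45 to 0.32 for CDKN2C in cis SSP cells. Between responses they were -0.05 to 0.01 for CCNE1 (carboplatin, cis minus wt), -0.01 to 0.04 and -0.31 to 0.03 for CCND1 (deprivation, cis minus wt and cis SSP minus cis), -0.56 to 0.30 for CDKN2B (medium, wt) and -0.11 to 0.00 for CCND3 (medium, cis).

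Counts over all genes moved by more than 1.5 times in places. With libraries 25 and 32 removed, 9262 genes in place of 3990 were called in cis SSP against cis cells, 5835 in place of 377 and 5679 in place of 199 under carboplatin in complete and deprived cis SSP cells, 4996 in place of 3 under deprivation, and 8341 in place of 2533 for deprivation, cis SSP minus cis. In 1 fit over all libraries these counts were 7980, 3089, 2860, 1532 and 5028, and there were 401 in place of 2702 for carboplatin in cis, 1141 in place of 3236 in deprived cis cells, 2820 in place of 7020 for deprivation of wt cells, 5240 in place of 8808 and 4881 in place of 8321 for carboplatin and deprivation, cis minus wt, and 1536 in place of 4219 and 112 in place of 1787 for the medium in wt and cis cells. DESeq2 called 1346, 723, 2146 and 576 genes for carboplatin in cis, cis SSP, deprived cis and deprived cis SSP cells and 105 for deprivation of cis SSP cells, where total counts gave 1 and no filter 5. With single libraries left out, the lowest and highest counts were 1995 (without cis 2) and 9262 (library 25) for cis SSP against cis, 9 (cis SSP carbo 1) and 5835 (library 25) for carboplatin in cis SSP, 0 (cis SSP -SG carbo 1) and 5679 (library 32) in deprived cis SSP, 1666 (cis -SG carbo 3) and 5224 (cis -SG carbo 1) in deprived cis cells, and 1334 (cis carbo 1) and 3593 (cis -SG carbo 1) for the medium in cis cells. The lowest for carboplatin in cis cells was 1755 (cis carbo 3), and each of the 6 fits for deprivation of cis SSP cells called 0 genes. Total counts shifted the median of all genes by -0.11 for deprivation, cis SSP minus cis. CDKN2B, at 2 to 30 counts per library, was limited by depth.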

Other observations

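Of 16 transcription factors and chromatin proteins that act on these genes, all 16 were called under carboplatin in wt cells, 11 higher and 5 lower, beside 77.8% of all genes called, with a median of 0.20 beside -0.00 over all genes. FOXO4, a forkhead factor, went from 9.92 to 210.3 CPM (4.41 ± 0.043, adjusted p = 0 by edgeR) in wt cells and from 11.9 to 14.3 CPM in cis cells (0.28 ± 0.0957, adjusted p = 0.0416). Under deprivation of cis cells 11 were higher and 3 lower (75% of all genes were called), with KLF4 going from 0.324 to 17.6 CPM (5.79 ± 0.176, adjusted p = 4.31e-31). Between cis and wt cells FOXO1 was 52.7-fold higher (5.72 ± 0.204, adjusted p = 5.35e-28).

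Of 8 neighbours of CDKN2A and CDKN2B on 9p21, 3 were tested between cis SSP and cis cells and none was called by edgeR (0 at an unadjusted p under 0.05), with a median of -0.04. With libraries 25 and 32 removed, 2 of the 3 were called higher, KLHL9 at 0.76 ± 0.0664 (adjusted p = 3.77e-12) and FOCAD at 0.12 ± 0.0435 (adjusted p = 0.0163), beside 65.4% of all genes. Among 5 genes tested within 1 Mb of CDKN2A in that comparison, CDKN2B included, the values ran from -0.80 to 2.45, and from -0.41 to 2.58 without libraries 25 and 32.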
